A study of Mus musculus with 4 samples.

Results

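The fetuins and testis cystatins are 9 mouse genes of the cystatin superfamily: Fetub, Ahsg, Hrg, Cst3, Cst8, Cst9, Cst11, Cst12 and Cst13. Fetub was selected on its lower signal in KO testes in these same arrays, and the other genes were added as its relatives. Of the 9 genes, 8 had a probe set, 1 each, among the 18820 genes with a value on the array, and no probe set was paired with Cst8 in the annotation used here. Total RNA of whole testes from adult male Azin2 KO and Azin2 WT mice was hybridized to 4 Mouse Gene 1.1 ST arrays from Affymetrix, 2 per genotype. Each array carried pooled RNA of 3 mice, so that the spread between arrays is that between pools and not between single animals. The KO mice were of a C57BL/6 mixed background and carried a β-Geo cassette in the Azin2 locus. Azin2 encodes antizyme inhibitor 2, which frees ornithine decarboxylase from its antizymes. Values are log2 signals from RMA (robust multi-array average), which corrects background and puts the arrays on one scale. Their precision is limited by the number of arrays. A signal is comparable between arrays for one gene. Between genes, signals were only placed against the median of an array or the means of all probe sets, as a rough guide to level.

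Cystatins fold around a wedge that blocks the active site of papain-like cysteine proteases, among them the cathepsins of lysosomes. Fetuins share this fold but are plasma glycoproteins made mainly by the liver, and bind mineral or inhibit metalloproteinases instead. The cystatins expressed in the testis and epididymis form a cluster of related genes, several of which (the group named after Cst8) lack residues that cystatins need to inhibit these proteases. In the order of RefSeq genes (GRCm38.p6), Ahsg, Fetub and Hrg were direct neighbours on chromosome 16, followed by the kininogen genes Kng2 and Kng1. On chromosome 2, Cst11, Cst12, Cst8, Cst13, Cst9 and Cst3 lay in this order within one cluster, together with Cstl1, Cstdc1 and Cstdc2.

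The arrays were alike in scale, with medians between 6.08 and 6.11. Azin2 itself had signals of 7.36 and 7.14 in KO testes, against 10.16 and 9.998 in WT testes, which fits the labels of all 4 arrays. All 7 spermatid, 5 spermatocyte, 5 spermatogonia and 5 Leydig cell markers with a value lay above the median of every array, as did 10 of 11 Sertoli cell markers. Of 11 epididymis markers 10 lay below the median of every array, and of 7 hepatocyte markers 6 did.

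Fetub encodes fetuin-B, which inhibits the protease ovastacin and so keeps the egg coat from hardening too early. Its signal was 6.69 and 5.83 in KO replicates 1 and 2, against 8.02 and 7.13 in WT replicates 1 and 2. The genotypes did not overlap, and a gap of 0.44 separated the nearest pair, KO replicate 1 and WT replicate 2. The means were 6.26 ± 0.61 in KO and 7.57 ± 0.62 in WT testes (SD, n = 2 pools each), a difference of -1.31 on the log2 scale or a signal in KO of 40.2% of that in WT. The KO replicate 2 value lay below the median of its array and the other 3 above, so that these figures rest in part on a dim signal. As Fetub was picked for this difference, it is a description and has no test. The pools of one genotype were far apart as well, since replicate 1 exceeded replicate 2 by 0.87 in KO and by 0.88 in WT. Over all genes, 99.9% had a smaller SD within genotypes than Fetub, and the median gene had 0.06. With KO replicate 2 left out the difference was -0.88, and with WT replicate 1 left out it was -0.87. It was -1.75 when either KO replicate 1 or WT replicate 2 was left out. In RNA of a whole organ, fewer cells of a type and less RNA per cell cannot be told apart.

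**Figure D1:**
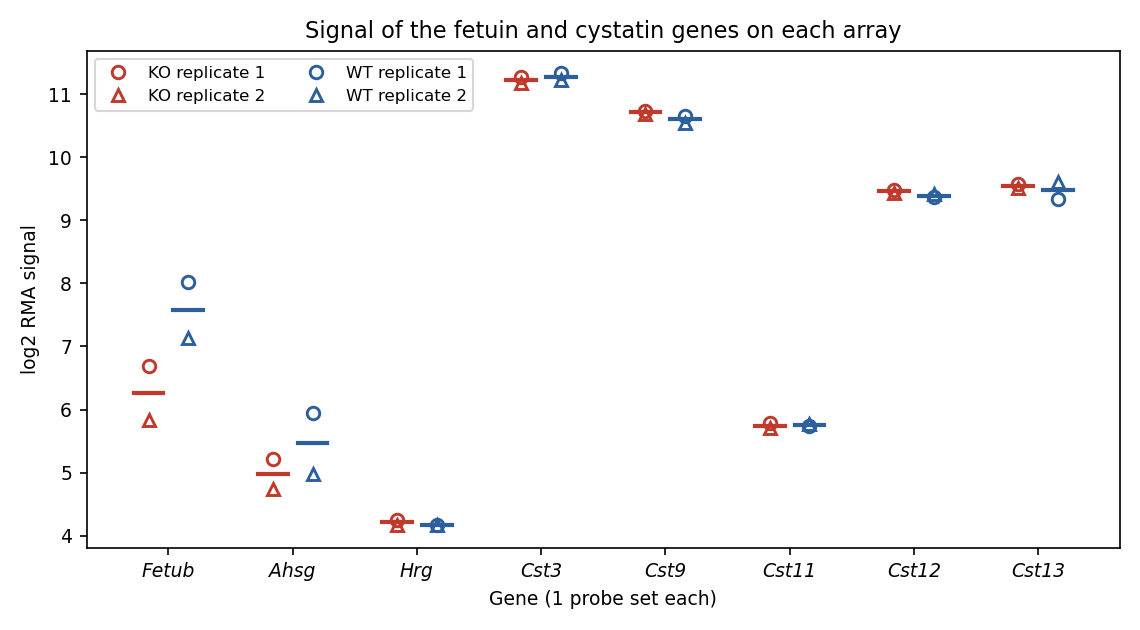
Log2 RMA signal (vertical axis) of the 8 genes with a probe set. Circles are replicate 1 and triangles replicate 2 of KO (red, left) and WT (blue, right), and bars are means of 2 arrays; for Fetub both KO points lie below both WT points, and for Ahsg replicate 1 lies above replicate 2 in both genotypes while the genotypes overlap.

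The probe set of Fetub was paired with 3 RefSeq mRNAs, and RefSeq gives the gene 2 starts, which this probe set does not separate. Among the measured fetuins and testis cystatins, Fetub and Ahsg varied most between pools, with SDs within genotypes of 0.62 and 0.54. Cst3 varied less, with 0.07, although 63.5% of genes had a smaller SD than Cst3. A link between promoter sequence and this spread was not tested. The stretches of 120 bases before both starts of Fetub are shown beside those of its neighbour Ahsg and of Cst3. They are from RefSeq on GRCm38.p6, Fetub from chr16:22918262-22918381 and chr16:22920102-22920221 and Ahsg from chr16:22891895-22892014 (plus strand), and Cst3 from chr2:148875513-148875632 (minus strand). Each runs 5′ to 3′ up to the base before the start, and capitals mark the motifs TATAAA and GGGCGG on either strand.
Fetub, first start: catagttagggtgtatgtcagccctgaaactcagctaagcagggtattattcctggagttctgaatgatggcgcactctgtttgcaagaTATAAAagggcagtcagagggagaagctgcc
Fetub, second start: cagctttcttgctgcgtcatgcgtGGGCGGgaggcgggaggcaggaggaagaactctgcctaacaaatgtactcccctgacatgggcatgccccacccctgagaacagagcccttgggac
Ahsg: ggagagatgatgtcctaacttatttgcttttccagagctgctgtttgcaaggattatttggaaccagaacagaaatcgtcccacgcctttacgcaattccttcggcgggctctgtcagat
Cst3: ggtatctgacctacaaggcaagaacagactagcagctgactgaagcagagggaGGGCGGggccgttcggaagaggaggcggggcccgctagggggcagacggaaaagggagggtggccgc

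A TATAAA motif, the usual letters of a TATA box, began at position -31 from the first start of Fetub, and none was found before its second start. GGGCGG, the core letters recognized by Sp1, stood before the second start of Fetub and before Cst3. From 250 bases before to 50 bases after the start, TATAAA on either strand was found in 3 of 9 promoters of the genes described here (Fetub's first, Cst13 and Hrg), and in 13.6% of 32851 promoters in all. In the same windows GGGCGG was found in 3 of the 9 (both of Fetub and Cst3) and in 35.7% of all promoters. The cyclic AMP response element TGACGTCA, whose factor CREM acts in spermatids, was found in 0 of the 9 and in 1.79% of all. These 3 motifs do not overlap one another, and promoters were at hand for 8 of the 9 genes, all but Cst11.

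Ahsg encodes fetuin-A, which keeps calcium phosphate from precipitating in blood and soft tissue. Its signal was 5.21 and 4.74 in KO replicates 1 and 2, against 5.95 and 4.98 in WT replicates 1 and 2, all below the median of the arrays. The genotypes overlapped, as KO replicate 1 exceeded WT replicate 2. The difference was -0.49 (95% confidence interval -1.37 to 0.40, adjusted p = 0.9995 from limma), with means of 4.98 ± 0.33 in KO and 5.46 ± 0.68 in WT testes (SD, n = 2). Left out in turn, KO replicates 1 and 2 gave differences of -0.72 and -0.25, and WT replicates 1 and 2 gave -0.0025 and -0.97. As for Fetub, replicate 1 was above replicate 2 in both genotypes, by 0.47 in KO and by 0.97 in WT, and 99.8% of genes had a smaller SD within genotypes. Hrg, the gene of histidine-rich glycoprotein, which binds heparin and zinc in plasma, lies next to Fetub on the chromosome. The signal of Hrg was 4.25 and 4.17 in KO, against 4.16 and 4.17 in WT testes, a difference of 0.04 (95% confidence interval -0.10 to 0.18, limma). It lay below the median on all 4 arrays, and 9.5% of all probe sets had a lower mean than Hrg. The pools of Hrg overlapped.

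The cystatins differed little between the genotypes. Cst3 encodes cystatin C, the secreted cathepsin inhibitor found in most body fluids. It had 11.28 and 11.17 in KO, against 11.33 and 11.23 in WT testes, so that the genotypes overlapped, with a difference of -0.06 (95% confidence interval -0.23 to 0.12, limma). Cst9, also called testatin and known from Sertoli cells of the developing testis, had a difference of 0.11, from 0.06 to 0.16 with 1 array left out. Its signal was 10.73 and 10.69 in KO, against 10.65 and 10.55 in WT testes. Both KO pools were above both WT pools, but the 95% confidence interval ran from -0.04 to 0.26 (adjusted p = 0.9995 from limma). All 11 Sertoli cell markers were higher in KO as well, by 0.01 to 0.21 with a median of 0.11, each at an adjusted p of 0.9995 or more from limma. Of all 18820 genes with a value, 10654 were higher and 8166 lower in KO. The averages of the Sertoli cell markers, relative to the mean of each gene, were 0.0098 and 0.10 in KO, against 0.01 and -0.12 in WT testes. The pools numbered 1 were thus nearly alike in these averages, and those numbered 2 were apart. The part of these markers in the difference of Cst9 was not tested.

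Cst12 and Cst13 are the genes between which Cst8 lies on chromosome 2. Cst12 had 9.49 and 9.43 in KO, against 9.37 and 9.42 in WT testes, and its pools were separated by 0.02 only. The difference of Cst12 was 0.07 (95% confidence interval -0.07 to 0.20, limma). Cst13, called cystatin T after the testis, had 9.58 and 9.52 in KO, against 9.35 and 9.61 in WT testes. The WT pools of Cst13 enclosed both KO pools, and its difference of 0.07 (95% confidence interval -0.18 to 0.33, limma) was -0.06 without WT replicate 1. Cst11, a relative of Cst8 best known from the epididymis, lay below the array median on all 4 arrays. Its signal was 5.79 and 5.70 in KO, against 5.74 and 5.77 in WT testes, with a difference of -0.01 (95% confidence interval -0.15 to 0.13, limma).

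Of the 7 measured genes other than Fetub, 0 passed an adjusted p of 0.05 from limma and 0 had an unadjusted p under 0.05, also by the ordinary equal-variance test. At an unadjusted p under 0.05 from limma there was 1 of the 7 with the replicate number as a block. The share of all probe sets at that p alone was not counted, so these counts at an unadjusted p have no background. The adjusted p of each of the 7 was 0.9995 from limma. The share of all 23099 named probe sets past an adjusted p of 0.05 was 0.00433%, which is Azin2 alone. The median difference of the 7 genes was 0.04, and that of all 18820 genes was 0.01. With both KO pools above both WT pools there were 2 of the 7 (Cst9 and Cst12), and 20.1% of named probe sets lay so. With both KO pools below both WT pools there were 0 of the 7, and 12.3% of named probe sets lay so. The thresholds of the study for its arrays were a fold of 1.5 with an unadjusted p below 0.05. They were passed by 0.0606% of named probe sets as lower in KO and by 0.0216% as higher in KO. Of the 8 measured genes 1 is among the lower ones, Fetub, which had been chosen by this contrast.

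Rarres1 stood next to the fetuins among the other genes of the superfamily. Of 28 cystatin relatives listed, 19 had a value of their own, 10 higher and 9 lower in KO. Of all 18820 genes, 10654 were higher and 8166 lower, which is the background for such counts in the later lists and markers as well. The cystatin relatives had a median difference of 0.01. Of them, 0 passed the thresholds of fold and p from limma in either direction (2 had an unadjusted p under 0.05). The lowest of them was Rarres1, a retinoid-induced relative of the carboxypeptidase inhibitor latexin. Its signal was 7.52 and 7.21 in KO, against 8.37 and 7.54 in WT testes, a difference of -0.58 (95% confidence interval -1.32 to 0.15, adjusted p = 0.9995 from limma). The KO pools of Rarres1 lay below the WT pools by 0.02, and replicate 1 was again the higher in both genotypes. The highest was Cstdc1, a cystatin-domain gene of the same cluster as Cst12. It had 8.53 and 8.49 in KO, against 8.16 and 8.20 in WT testes, a difference of 0.33 (95% confidence interval 0.20 to 0.46, unadjusted p = 0.00136 and adjusted p = 0.9995 from limma). The pools of Cstdc1 did not overlap, and its difference was several times the distance between pools of one genotype.

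Cstdc2, which lies between Cst9 and Cst3, was singled out after its values were seen. Its signal was 9.53 and 5.68 in KO replicates 1 and 2, against 8.93 and 6.76 in WT replicates 1 and 2. Replicate 1 thus exceeded replicate 2 by 3.84 in KO and by 2.17 in WT, while the genotypes differed by -0.24 (95% confidence interval -3.85 to 3.37, limma). Cst9 and Cst3 on either side of it had gaps between replicates of no more than 0.11.

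**Figure D2:**
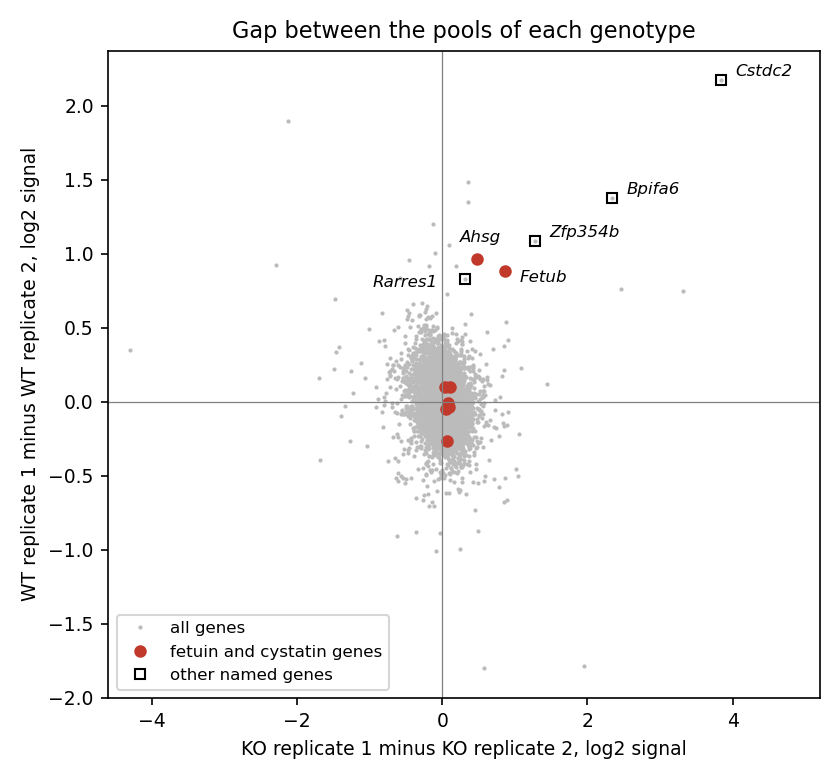
Log2 signal of replicate 1 minus replicate 2 in KO (horizontal axis) and in WT (vertical axis). Grey points are all 18820 genes, red points the 8 genes described here and squares other named genes; Fetub (0.87 and 0.88), Ahsg (0.47 and 0.97) and Cstdc2 (3.84 and 2.17) lie outside the main cloud at the upper right, and the cystatins and Hrg lie within it.

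The protease families that hold targets of cystatins and of fetuin-B were examined next. Whether each listed protease is itself such a target was not examined. Of 11 cysteine proteases listed, 10 had a value, 4 higher and 6 lower in KO, with a median difference of -0.09. An unadjusted p under 0.05 from limma was found for 3 (Ctsc, Ctsh and Ctsz), all lower in KO. The share of all probe sets at that p alone was not counted, so such numbers, here and for the other lists, have no background. The thresholds of fold and p were passed by 1, as lower. This was Ctsc, the gene of cathepsin C, which activates serine proteases of immune cells. Ctsc had 7.02 and 7.28 in KO, against 7.42 and 8.08 in WT testes, a difference of -0.60 (95% confidence interval -1.20 to -0.01, unadjusted p = 0.0479 and adjusted p = 0.9995 from limma). Like Ctsc, the 7 macrophage markers were lowest in KO replicate 1 and highest in WT replicate 2 on average, with -0.22 and 0.06 in KO, against -0.06 and 0.22 in WT testes, and their part in this difference was not tested. Ctsc did not pass with KO replicate 1 left out, nor with WT replicate 2 left out. The highest of the list was Ctsw, a cathepsin of cytotoxic lymphocytes, at 0.11. All 6 astacin proteases had a value, 4 higher and 2 lower in KO, with a median of 0.04 and 0 past the thresholds from limma (1 had an unadjusted p under 0.05). They ranged from -0.08 for Bmp1, the procollagen C-proteinase, to 0.20 for Tll2, a tolloid-like protease. Astl, the gene of ovastacin itself, is an egg gene and lay below the median of every array. It is named for its role, outside the rule for named genes, and had 4.90 and 4.92 in KO, against 4.84 and 4.86 in WT testes, a difference of 0.06 (95% confidence interval -0.06 to 0.18, limma).

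Fetuins are known as liver products, so 23 other liver genes were set beside them, all of plasma proteins but Cps1, which encodes a liver enzyme. All 23 had a value, 15 higher and 8 lower in KO, with a median of 0.02, and 0 passed the thresholds from limma (1 had an unadjusted p under 0.05). They ranged from -0.19 for the haptoglobin gene Hp to 0.18 for Fga, the fibrinogen alpha chain. Both of these, like most of the 23, lay below the median of every array. Ahsg, also below the median of every array, had a difference of -0.49 with pools that overlapped. The 7 hepatocyte markers are all among these 23 genes, and each was taken relative to its own mean over the arrays. They averaged 0.0037 and -0.02 in KO replicates 1 and 2, against -0.06 and 0.08 in WT replicates 1 and 2. The average of the 11 epididymis markers lay between -0.01 and 0.01 on every array, and their differences ranged from -0.11 to 0.11. All 7 macrophage markers were lower in KO, by differences from -0.25 to -0.03, and all 7 were lower in replicate 1 than in replicate 2 of both genotypes. Of 5 Leydig cell markers, all were lower in KO, by differences from -0.14 to -0.02, and they averaged -0.19 and 0.12 in KO, against 0.09 and -0.02 in WT testes. The adjusted p of each of these macrophage and Leydig cell markers was 0.9995 or more from limma. Whether these cell types had a part in the fetuin signals was not tested.

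**Figure D3:**
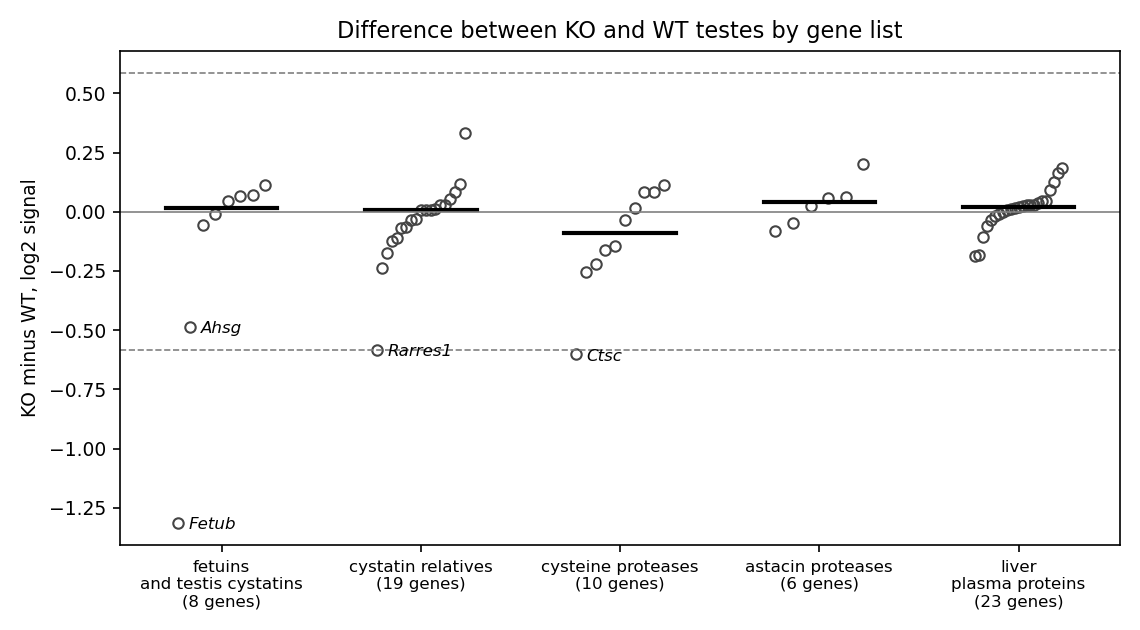
KO minus WT on the log2 scale (vertical axis) for 5 groups of genes. Each circle is 1 gene, black bars are medians and dashed lines mark a fold of 1.5; Fetub (-1.31) and Ctsc (-0.60) lie past the lower line, Rarres1 (-0.58) on it, and 0 genes past the upper one.

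The genes most like Fetub over the 4 arrays were found by the distance between profiles, each gene being taken relative to its own mean. Of 18819 other genes, the nearest was Ly6d, a small membrane-anchored protein of the Ly6 family, at a distance of 0.57. Ly6d had 6.59 and 6.25 in KO, against 8.41 and 6.92 in WT testes, with both KO pools below both WT pools. The second was Klk1b24, a kallikrein protease, at 0.75, with 9.88 and 8.79 in KO, against 10.19 and 9.97 in WT testes. Rarres1 came next at 0.83 and Ahsg at 0.88, followed by 1300017J02Rik at 0.96, with 8.32 and 6.87 in KO, against 8.29 and 8.17 in WT testes. In all 5 genes replicate 1 was above replicate 2 in both genotypes. The profile of Fetub includes this order of replicates and the contrast for which Fetub was picked. Likeness in either thus follows largely from the choice by distance, and the distances are a description over 4 arrays.

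**Figure D4:**
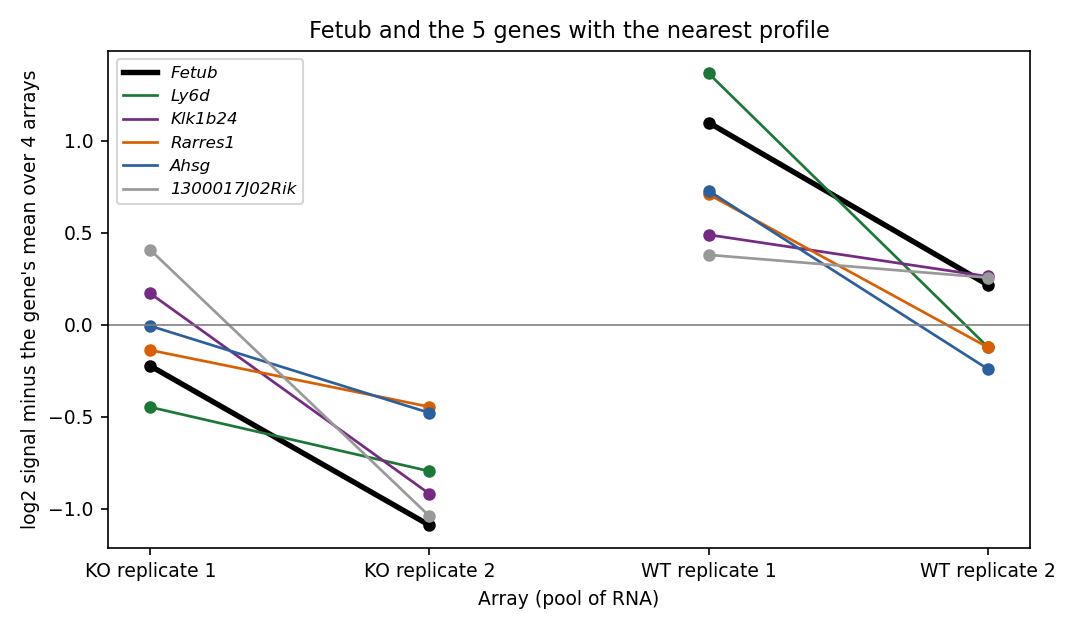
Log2 signal relative to the mean of each gene over the 4 arrays (vertical axis), for Fetub (black) and the 5 genes with the nearest profile, on each array (horizontal axis). Each point is 1 array and lines join the 2 pools of a genotype; each of the 6 genes has its highest value in WT replicate 1 except 1300017J02Rik, and in all 6 replicate 1 is above replicate 2. The 5 genes were chosen for their nearness to Fetub, which itself has this order.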

How the data were processed

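Testis RNA from Azin2 KO and WT mice was measured on 4 arrays. The authors deposited log2 signals per probe set, made by RMA with Partek 6.13.1224 per the submitters' processing notes. The genome build is not given in the sources used here. Groups were taken from the sample titles. The titles number the replicates, and that each sample was a pool is stated in the paper. Whether pools share mice is not stated.

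Names of probe sets came from GEO's platform annotation, with symbols updated through gene identifiers to RefSeq of GRCm38.p6. The table holds 35556 probe sets, 21218 with 1 symbol, 1881 with several and 12457 without a name here. A gene was represented by its single-symbol probe set of highest mean.

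KO was compared with WT over the 23099 named probe sets with limma 3.58.1 (lmFit and eBayes) in R 4.3.3, with no filter and Benjamini-Hochberg adjustment. The fit was tested on simulated data. The smallest p of an exact permutation test of 2 against 2 arrays is 0.333, so none was used. The genes and lists were chosen with earlier results of these data known. The genes named are the 9 genes, Azin2, the highest and lowest of each list and those past the thresholds of fold and p, and the 5 profiles nearest to Fetub. Alternatives were 2 variance priors, the ordinary test (the methods name Student's test for the study, none for arrays), 2 normalizations, a filter on dim probe sets, all probe sets, the mean over probe sets, a replicate block, a fold of 1.2 and each array left out. The filter kept named probe sets whose mean over the arrays was above the median of these means. Figures were drawn with matplotlib 3.10.9.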

Additional observations from a re-analysis of the deposited data

How the results depend on the processing

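With 2 pools for each genotype, a difference within the spread between pools was not detectable. The signals of Ahsg, Hrg, Cst11 and Fetub in KO replicate 2 lay below the array median. Such signals may lie near background, but no background level was measured. Among 7 measured genes other than Fetub, 0 passed an adjusted p of 0.05 under any setting. The difference of Fetub was negative wherever it was measured. With 1 array left out it ran from -1.75 to -0.87 (the lone array was taken to vary as the other genotype did). Dropping 1 array could not turn this sign, since the genotypes were fully separated in the signals for which Fetub was picked. Only the size of the difference was open to change there. The count of genes past fold and p, 1 in all, is that of Fetub, which was chosen by it, so that its counts are a description. It was 0 by the ordinary test, 0 with a filter that kept probe sets over the median level (Fetub was not kept), and from 0 to 2 with 1 array left out, 2 being Fetub and Ahsg without WT replicate 2. For the cysteine proteases that count, 1 in all, was 0 by the ordinary test, by quantile normalization, with the filter and with every probe set of the table, and from 0 to 1 with 1 array left out. For cystatin relatives it was 1 in place of 0 at a fold of 1.2 and ranged from 0 to 1 with 1 array left out. With the filter, which tests fewer genes, the median difference was -0.071 for cystatin relatives and -0.034 for cysteine proteases, and 0 astacin proteases were left to test. With 1 array left out, medians ranged from -0.0025 to 0.086 for the genes other than Fetub, from -0.049 to 0.0045 for cystatin relatives and from -0.097 to 0.013 for cysteine proteases. Signs turned for Cst11, at 0.034 without KO replicate 2 and 0.0070 without WT replicate 2 (range -0.053 to 0.034), and for Cst13, at -0.059 without WT replicate 1 (range -0.059 to 0.20). The number past fold and p was 19 of all named probe sets, 6 by the ordinary test, 10 with the filter, 127 with every probe set, and from 29 to 69 with 1 array left out. The cause was not tested except where stated. Whether pools overlap was not counted with an array left out. Over 23099 probe sets, same-numbered pools had deviations that correlated at -0.08, so over all probe sets they did not vary together. A factor that same-numbered pools share in a few genes would not show in this figure. With the replicate block the difference of Fetub was -1.31, 24 probe sets passed fold and p, and 1 of the 8 measured genes did.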

Other observations

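The gap between replicates 1 and 2 was counted over all genes after that of Fetub had been seen. Of 18820 genes, 4 had a signal in replicate 1 more than 0.8 above replicate 2, on the log2 scale, in both genotypes, and 0 had the reverse. The 4 were Cstdc2, Fetub, Bpifa6 and Zfp354b, of which the choice of threshold fixed Fetub. Bpifa6, of the family of lipid-binding BPI-fold proteins, had 6.47 and 4.14 in KO replicates 1 and 2, against 5.38 and 4.002 in WT replicates 1 and 2. The zinc finger gene Zfp354b had 7.11 and 5.83 in KO, against 6.52 and 5.44 in WT testes. In both the genotypes overlapped, with differences of 0.61 for Bpifa6 and 0.49 for Zfp354b. The threshold of 0.8 was set after the values were seen.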
